A study of Mus musculus with 2 samples.

Results

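The genes of the proteasome were compared between aortic macrophages sorted from ApoE-/- mice of a PDR model and of a SKYD model. The members were the protein-coding genes whose symbol begins with Psma, Psmb, Psmc, Psmd or Psme and a digit, and 45 of the 54532 genes in the deposited table met this rule. They comprised 5 immunoproteasome genes, Psmb8, Psmb9, Psmb10, Psme1 and Psme2, and 40 other members. Of the others, 36 encode constitutive subunits, assembly chaperones of the base or further activators. The remaining 4 were Psme2b, an intron-less copy of Psme2, Psma8 and Psmb11, which are known from testis and thymus, and Psmc3ip, a recombination factor that matches the rule by name only.

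PDR stands for phlegm-dampness retention and SKYD for spleen and kidney Yang deficiency, which are syndromes of traditional Chinese medicine that were modelled in mice by feeding and a drug. All mice were male ApoE-/- animals on a C57BL/6J background, labelled as 6 weeks old, and lack apolipoprotein E, which clears lipoproteins from blood. The PDR mice received a high-fat diet for 4 weeks. The SKYD mice were gavaged with propylthiouracil, an inhibitor of thyroid hormone synthesis, at 10 mg/kg per day for 4 weeks and then received the high-fat diet for 2 weeks. Syndrome, drug, length of diet and age at sampling therefore cannot be told apart. Cells from aortas were sorted on F4/80 and CD11b, 5 mice were used in each group, and RNA of each group was sequenced as 1 library. No difference below has a replicate check, and no p-value was computed. No library of normal mice was analysed here.

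The proteasome is the protease that degrades proteins tagged with ubiquitin. Its barrel-shaped core consists of outer alpha rings and inner beta rings, and the catalytic beta subunits are encoded by Psmb5, Psmb6 and Psmb7. Interferon-gamma, a cytokine that activates macrophages, induces Psmb8, Psmb9 and Psmb10, whose products replace these catalytic subunits in newly made cores, and Psme1 and Psme2, whose products form a ring-shaped activator on the end of the core. Immunoproteasomes are abundant in lymphocytes and other blood cells and shape the peptides that MHC class I molecules present.

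The libraries held 23086889 reads on genes in PDR and 25427863 in SKYD, and the members took 1.45% of them in PDR and 1.21% in SKYD. Levels are given in FPKM, which is the number of reads divided by gene length and by library size. Differences are log2(FPKM + 1) in PDR minus SKYD, for the 10399 genes whose FPKM averaged 1 or more, and their median was -0.0035. The 95% intervals of gene differences are exact (Clopper-Pearson) and describe the division of a gene's reads between the libraries. Counting error is the only error in them, and variation among mice is not included. The sort markers were present in both libraries, since Adgre1, the F4/80 gene, had 87.3 FPKM in PDR and 93.3 in SKYD, and Itgam, the CD11b gene, had 8.84 and 14.4.

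All 5 immunoproteasome genes were higher in the PDR library, and the constitutive subunits lay on both sides of 0. The median log2 difference was 0.93 for the 5 immunoproteasome genes and 0.05 for the 39 other members that passed the filter. For the 36 constitutive members it was 0.03, with a range from -0.58 to 0.59. The summed level of the 5 genes was 1348 FPKM in PDR and 681 in SKYD, a ratio of 1.98, whereas the sum over the 36 constitutive members was 4664 in PDR and 4757 in SKYD, a ratio of 0.981. In RNA of a sorted population, more cells of a type that carries much immunoproteasome mRNA and more of this mRNA per cell cannot be told apart.

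Among all members tested, 3 were more than 2-fold higher in PDR, namely Psmb9, Psme2 and Psme2b, out of 44. This share compares with 7.38% of all genes tested. Only Psma8 was more than 2-fold higher in SKYD, while 6.91% of all genes tested were. At the lower threshold of 1.5-fold, 7 members were higher in PDR, against 15.1% of all genes, and these were the 5 immunoproteasome genes, Psme2b and Psmd5. At the same threshold Psma8 alone was higher in SKYD, against 15.0% of all genes. The nearest member outside was Psma6, at -0.58. Beyond 4-fold on this scale lay 0 members in PDR, against 1.87% of all genes, and 0 in SKYD, against 2.08%.

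**Figure D1:**
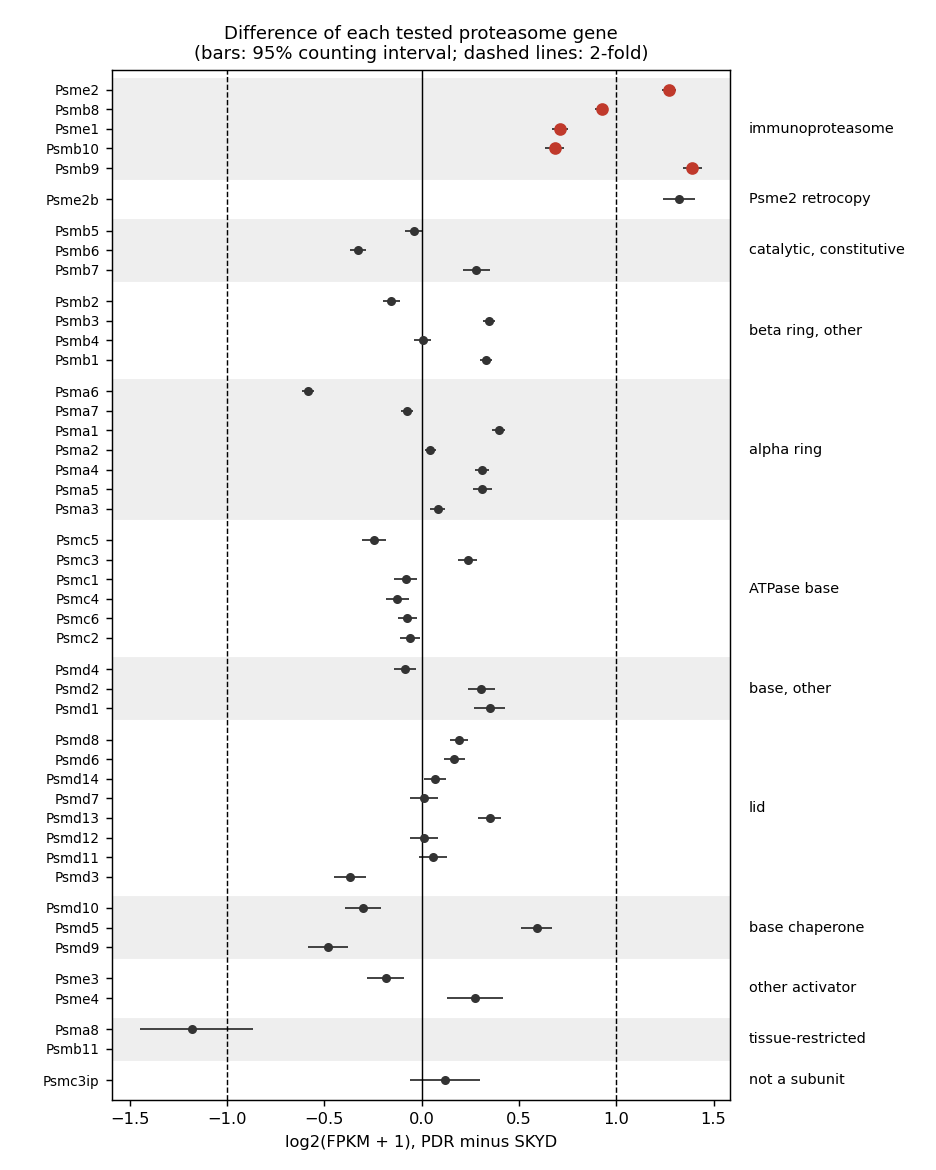
Difference in log2(FPKM + 1), PDR minus SKYD, of each of the 44 members tested, ordered by role and by level, with 95% counting intervals as bars and 2-fold as dashed lines. The immunoproteasome genes, in red, lie between 0.68 and 1.39, while the constitutive members lie between -0.58 and 0.59. Psmb11, with 0 reads in both libraries, has no point.

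The inducible catalytic genes were described first. Psmb9 (ENSMUSG00000096727, chr17:34181988-34187764 on the minus strand of GRCm38) replaces Psmb6 in the core. It had 11492 reads and 134 FPKM in PDR, and 4605 reads and 50.4 FPKM in SKYD. The level in PDR was 2.66 times that in SKYD, with a log2 difference of 1.39 (95% CI 1.34 to 1.44), the largest of the 44 members tested. Among all genes tested, 95.4% had a lower difference.

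Psmb8 (ENSMUSG00000024338, chr17:34197721-34201454, plus strand) replaces Psmb5. Its values were 20120 reads and 313 FPKM in PDR and 11240 reads and 164 FPKM in SKYD. PDR was 1.90 times SKYD, and the log2 difference was 0.93 (0.89 to 0.96), just under 2-fold. With the libraries scaled on protein-coding reads it was 1.05, past 2-fold. Psmb10 (ENSMUSG00000031897, chr8:105935735-105938444, minus strand) replaces Psmb7. It had 8794 reads and 220 FPKM in PDR and 5813 reads and 136 FPKM in SKYD. Its difference of 0.68 (0.64 to 0.73) was the smallest of the 5 genes and corresponds to 1.61 times the level in SKYD.

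The activator genes also lay above SKYD. Psme2 (ENSMUSG00000079197, chr14:55587441-55591113, minus strand) encodes the beta subunit of the ring that caps the core. It had 17922 reads and 433 FPKM in PDR and 7880 reads and 179 FPKM in SKYD. The fold was 2.42 and the log2 difference 1.27 (1.23 to 1.31). Psme1 (ENSMUSG00000022216, chr14:55578123-55581529, plus strand), the gene of the alpha subunit, had 12913 reads and 249 FPKM in PDR and 8370 reads and 152 FPKM in SKYD. With a log2 difference of 0.71 (0.67 to 0.75), Psme1 was 1.64-fold higher. The ratio of Psme1 to Psme2 in FPKM was therefore 0.575 in PDR and 0.848 in SKYD. Psme2 had the 12th highest level among the 45 members in SKYD and the 2nd highest in PDR, where Psma6 alone was above it.

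**Figure D2:**
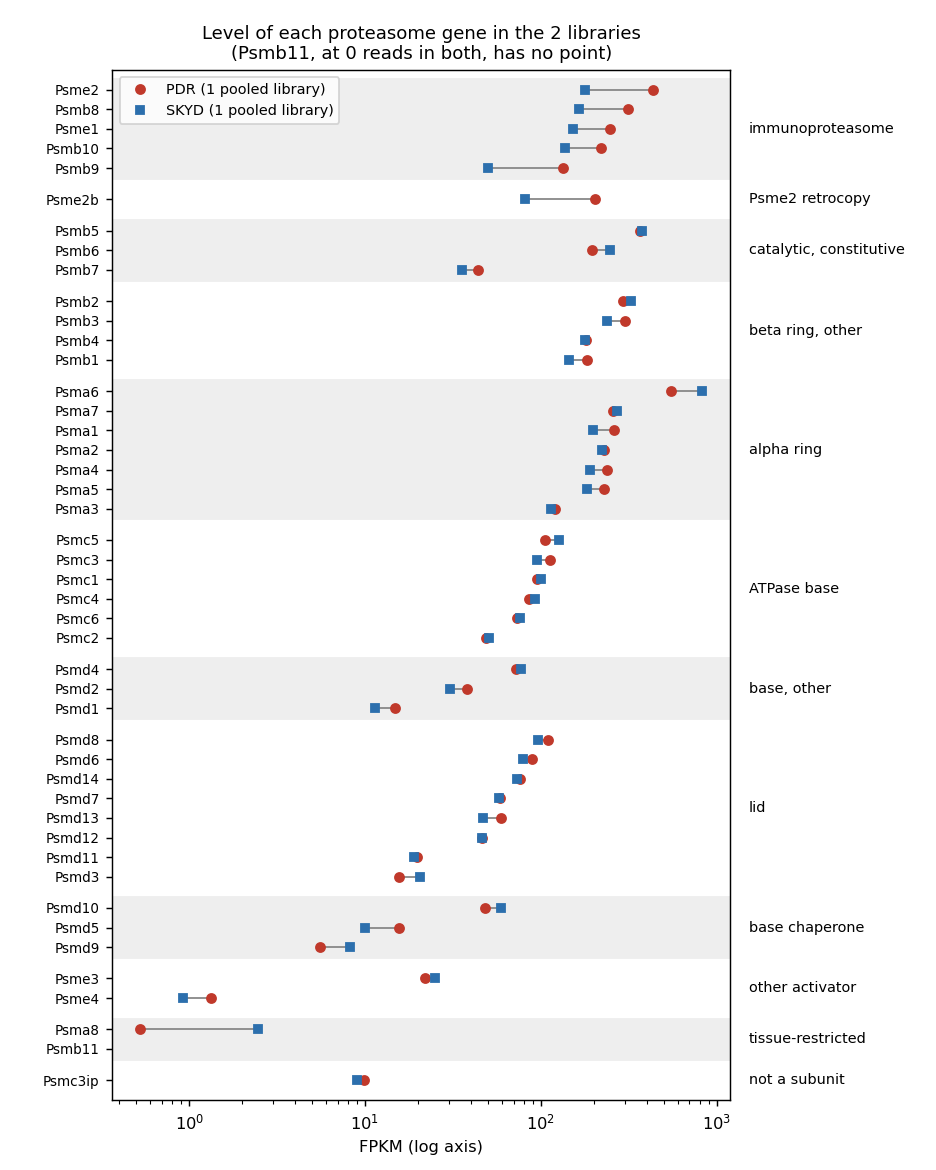
FPKM of each member in the PDR library (red circles) and the SKYD library (blue squares) on a log axis, with a line between the values of a gene, grouped by role. The immunoproteasome genes span 134 to 433 FPKM in PDR and 50.4 to 179 FPKM in SKYD, and the retrocopy Psme2b follows Psme2.

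The copy Psme2b had 4007 reads and 204 FPKM in PDR and 1692 reads and 80.9 FPKM in SKYD, with a log2 difference of 1.32 (1.24 to 1.40). Its sequence does not separate well from Psme2. Of its 50-base windows, 68.7% occur in Psme2, and 28.3% of the windows of Psme2 occur in Psme2b. The values of the copy thus cannot be told apart from reads of Psme2, and how the counting treated reads with several matches is not given in the sources used here. Summed over both genes, PDR had 21929 reads and SKYD 9572, a fold of 2.44, close to that of Psme2 alone.

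Psmb9 and Tap1, which encodes a subunit of the peptide transporter, start next to each other on opposite strands and are known to share a promoter. They share 212 of the 3660 exonic bases of Psmb9, and the strand setting of the count is not given in the sources used here. Tap1 had 5055 reads in PDR and 1355 in SKYD, so its reads were fewer than those of Psmb9 in both libraries. Psmb8 begins 9956 bases from Psmb9, and Psme1 and Psme2 lie 5911 bases apart on chromosome 14.

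Because these 5 genes differed in the same direction, the sequence before their starts was read from RefSeq (GRCm38.p6), and that of Psmb5 is shown for comparison. Windows of 250 bases before the RefSeq start were searched on both strands for the interferon-gamma activated site (GAS, TTCNNNGAA), the interferon-stimulated response element (ISRE, written GAAA, any 2 bases, GAAA), its shorter core (AANNGAAA, which every ISRE also holds) and the antioxidant response element (ARE, TGACNNNGC). For Psmb8, Psmb9 and Psme1 the whole window, with the match of Psmb8, lies inside the gene span of the deposited table. The windows of Psmb10, Psme2 and Psmb5 lie partly inside that span. Bases are counted back from -1 next to the RefSeq start, capitals mark a match, and stretches that are exons of an annotated transcript are left out except for the 30 bases around the match of Psmb8.
Psmb8 (chr17:34198088-34198117, plus strand, -107 to -78, GAS in capitals): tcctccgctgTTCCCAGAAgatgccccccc
Psmb10 (chr8:105938445-105938642, minus strand, -250 to -53, no match): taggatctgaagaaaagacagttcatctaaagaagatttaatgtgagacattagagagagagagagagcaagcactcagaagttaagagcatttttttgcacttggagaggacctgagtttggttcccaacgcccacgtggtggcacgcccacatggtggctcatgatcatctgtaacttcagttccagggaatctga
Psme1 (chr14:55578249-55578359, plus strand, -245 to -135, no match): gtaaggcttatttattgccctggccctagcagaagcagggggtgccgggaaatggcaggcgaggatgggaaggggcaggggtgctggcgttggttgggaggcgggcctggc
Psme2 (chr14:55591114-55591351, minus strand, -250 to -13, no match): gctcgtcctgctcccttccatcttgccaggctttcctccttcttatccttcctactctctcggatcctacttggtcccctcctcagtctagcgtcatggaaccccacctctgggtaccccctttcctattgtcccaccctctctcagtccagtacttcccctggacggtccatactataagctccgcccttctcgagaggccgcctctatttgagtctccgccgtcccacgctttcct
Psmb5 (chr14:54618023-54618245, minus strand, -250 to -28, ARE in capitals): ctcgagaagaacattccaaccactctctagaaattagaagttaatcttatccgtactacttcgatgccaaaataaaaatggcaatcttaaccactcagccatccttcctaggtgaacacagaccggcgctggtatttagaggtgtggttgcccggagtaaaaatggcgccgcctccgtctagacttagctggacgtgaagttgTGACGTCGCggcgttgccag

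Among the 6 windows of the immunoproteasome genes, 1 held a GAS match, that of Psmb8, and 0 held an ISRE, the shorter core or an ARE. Among the 35 windows of 33 other members, 0 held a GAS match, 3 an ISRE (Psmb3, Psmd4 and Psmd9), 9 the shorter core and 5 an ARE (Psmb5, Psmb6, Psmc6, Psmd12 and Psmd9). For all 32851 windows the shares were 7.02% for GAS, 2.98% for ISRE, 21.3% for the shorter core and 10.2% for ARE. A match is a description of letters, and a missing match says only that these letters are not in the window. The table holds no window for Psma8, Psmb1, Psmb2, Psmb7, Psmc3, Psmd3 and Psmd7.

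The constitutive catalytic genes showed no common direction. Psmb5, which encodes the chymotrypsin-like subunit, had 365 FPKM in PDR (7715 reads) and 375 in SKYD (8436 reads). The log2 difference of -0.04 (-0.08 to 0.01) includes 0, and 54.1% of the 50-base windows of Psmb5 occur in other genes. Psmb6, of the caspase-like subunit, was lower in PDR with 197 FPKM against 247 in SKYD, a log2 difference of -0.33 (-0.37 to -0.28). For Psmb7, of the trypsin-like subunit, the levels were 43.8 FPKM in PDR and 35.8 in SKYD, and the log2 difference was 0.28 (0.21 to 0.35).

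Each inducible gene was then set against the constitutive gene whose product it replaces, since the ratio within a library does not depend on how the library was scaled. Psmb9 was at 0.680 times the FPKM of Psmb6 in PDR and at 0.204 times in SKYD, so that its share of the pair was 40.5% in PDR and 17.0% in SKYD. The ratio of Psmb8 to Psmb5 was 0.857 in PDR and 0.438 in SKYD, which are shares of 46.1% and 30.4%. Psmb10 was above Psmb7 in both libraries, with ratios of 5.02 in PDR and 3.81 in SKYD and shares of 83.4% and 79.2%. The log2 ratio thus differed by 1.74 (1.67 to 1.80) for the pair of Psmb9. It differed by 0.97 (0.91 to 1.02) for the pair of Psmb8 and by 0.40 (0.31 to 0.48) for that of Psmb10. These intervals use a normal approximation on the reads of both genes in both libraries and hold counting error only. The intervals of the pairs do not overlap.

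Summed over the pairs, the inducible genes made up 52.4% of catalytic FPKM in PDR and 34.8% in SKYD. The level and share of a pair depend on the length given to each gene, but the change in its log2 ratio between libraries does not. With the length of the principal transcript in place of the table's length, the ratio of Psmb8 to Psmb5 was 1.44 in PDR and 0.736 in SKYD, and that of Psmb10 to Psmb7 was 2.21 and 1.68. The activator genes Psme1 and Psme2 together were at 0.361 times the summed FPKM of the alpha ring in PDR and at 0.165 times in SKYD.

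**Figure D3:**
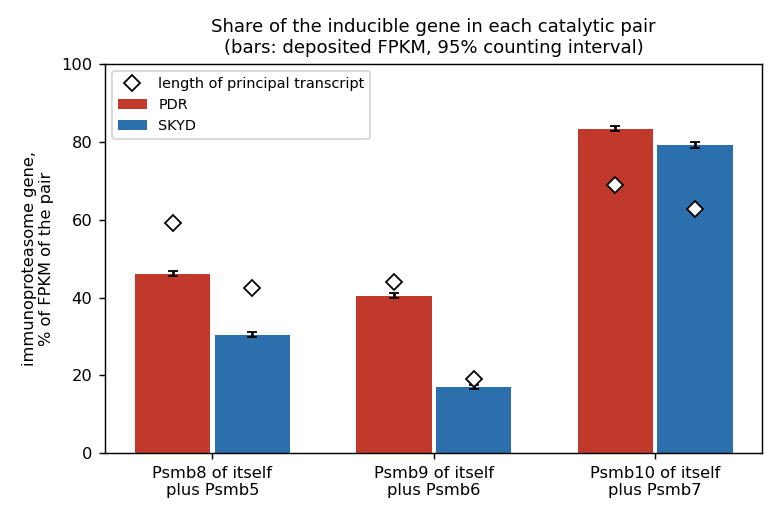
Share of the inducible gene in the summed FPKM of each catalytic pair, in percent, for PDR (red bars) and SKYD (blue bars) with 95% counting intervals, and diamonds for the share with the length of the principal transcript. The share is higher in PDR for each pair, 46.1% against 30.4% for Psmb8, 40.5% against 17.0% for Psmb9 and 83.4% against 79.2% for Psmb10. The intervals are exact and describe the division of a pair's reads within a library.

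The alpha ring, which gates the entry to the core, had 7 members with a median log2 difference of 0.08. Psma6 had the highest level of all members in both libraries, 551 FPKM in PDR and 826 in SKYD, and its difference of -0.58 (-0.61 to -0.55) was the lowest of the constitutive members. Psma1 had the highest of the ring, with 263 FPKM in PDR and 199 in SKYD and a difference of 0.40 (0.36 to 0.43). Genes of subunits that stand in the same ring thus differed in opposite directions. The other 5 genes lay between -0.08 for Psma7 and 0.31 for Psma5. Of these, Psma7 turned positive (0.05) when the libraries were scaled on protein-coding reads.

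The beta subunits without catalytic activity had a median of 0.17. Psmb3 had 303 FPKM in PDR and 238 in SKYD (0.35), and Psmb1 had 183 and 145 (0.33). Psmb4 did not differ beyond counting error, at 180 and 179 FPKM (0.01, -0.04 to 0.05), and Psmb2 was at 292 and 325 (-0.16).

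The regulatory particle recognises, unfolds and feeds in ubiquitinated proteins. At the deposited gene lengths, its genes had a lower median FPKM than the core genes without catalytic activity. The median FPKM of its 17 ATPase, base and lid members was 72.7 in PDR and 72.9 in SKYD, against 237 in PDR and 199 in SKYD for the 11 alpha and beta members without catalytic activity. The 6 ATPase genes, which form the unfolding ring, had a median difference of -0.08 and a range from -0.24 for Psmc5 to 0.24 for Psmc3. By the deposited FPKM 5 of them were lower in PDR, but by protein-coding reads only 2 were, and the median was then 0.05. Psmc5 had 106 FPKM in PDR and 126 in SKYD, and Psmc3 had 113 and 95.8.

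Among the base subunits without ATPase activity, the scaffold genes Psmd1 and Psmd2 had differences of 0.35 and 0.31, and the ubiquitin receptor gene Psmd4 had -0.08. Psmd4 turned to 0.04 with protein-coding reads. The 8 lid genes had a median of 0.06. The deubiquitinase gene Psmd14 was at 76.6 FPKM in PDR and 72.9 in SKYD (0.07, 0.01 to 0.13). In the lid, Psmd13 had the highest difference (0.35), and Psmd3 had the lowest, with 15.7 FPKM in PDR and 20.5 in SKYD (-0.37). None of the 17 genes reached 1.5-fold in either direction, against 15.1% of all genes tested in PDR and 15.0% in SKYD.

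The base assembly chaperones, which dock the ATPases during assembly and leave the finished particle, differed more among themselves. Psmd5 had 15.7 FPKM in PDR and 10.1 in SKYD, a log2 difference of 0.59 (0.51 to 0.67), the highest of the 36 constitutive members. Psmd9 had 5.57 in PDR and 8.18 in SKYD (-0.48, -0.58 to -0.38), and Psmd10 had 47.9 and 59.3 (-0.30). Psmd9 lies across Hpd, a liver gene on the other strand with 1606 reads in PDR and 367 reads in SKYD. Among the further activators, Psme3, whose product caps the core in the nucleus, had 22.02 FPKM in PDR and 25.2 in SKYD (-0.18), and Psme4 was near the filter with 1.33 and 0.926 (0.28).

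The remaining members were low. Psma8, which replaces Psma7 in the testis, had 21 reads in PDR and 104 in SKYD, or 0.528 and 2.46 FPKM. Its log2 difference of -1.18 (-1.44 to -0.87) was the lowest of the 44 members. At these low levels it depends on the pseudocount, being -2.03 with 0.1 and -2.20 with 0.01, and the level in SKYD was 4.65 times that in PDR. Psmb11, the catalytic subunit of cortical thymic epithelium, had 0 reads in both libraries, which allows up to 3 reads in each. Psmc3ip had 9.91 FPKM in PDR and 9.05 in SKYD (0.12, -0.06 to 0.30).

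**Figure D4:**
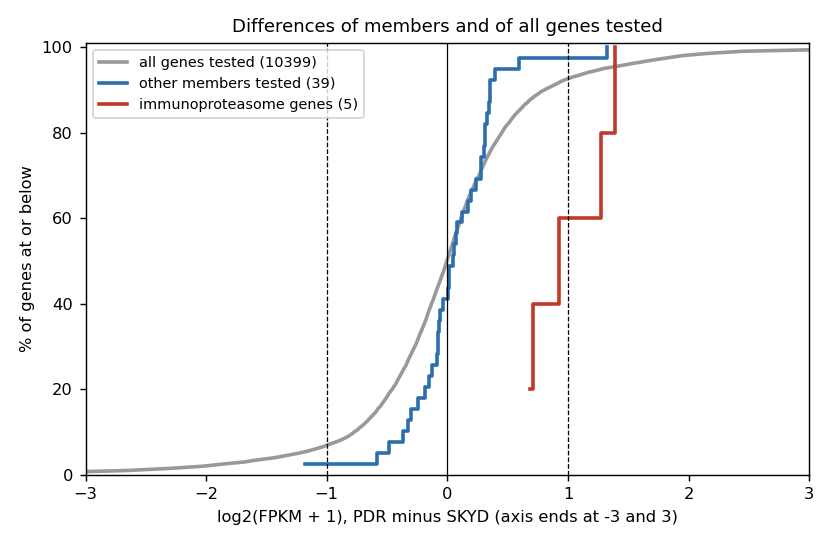
Cumulative share of genes, in percent, at or below each log2(FPKM + 1) difference of PDR minus SKYD, for all 10399 genes tested (grey), the 39 other members (blue) and the 5 immunoproteasome genes (red). The other members have a median of 0.05 beside -0.0035 for all genes, and the immunoproteasome genes begin at 0.68.

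Related genes were taken from lists chosen by function. The factors that assemble or bind the proteasome had a median of -0.22 over 13 genes tested. Sem1, a small lid subunit, had 111 FPKM in PDR and 148 in SKYD (-0.40), and Pomp, the maturation factor needed for new cores, had 99.4 and 87.1 (0.19). Psmg4, a chaperone of core assembly, had 80.8 and 84.9 (-0.07). Only Ublcp1, a phosphatase of the proteasome, was more than 2-fold higher in PDR, with 40.01 and 14.1 FPKM (1.44), against 7.38% of all genes tested. In SKYD 0 of the 13 were more than 2-fold higher, against 6.91% of all genes. Akirin2, which carries proteasomes into the nucleus, had 14.7 and 24.2 FPKM (-0.68).

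The 5 genes around NRF1 (Nfe2l1), the factor that raises constitutive subunit genes when proteasome activity is low, had a median of 0.23. Nfe2l2 had 29.5 FPKM in PDR and 24.3 in SKYD, and Vcp, which extracts NRF1 from the membrane, had 30.7 and 27.1. Ngly1, which removes sugars from NRF1, had 9.35 and 6.05 (0.55). The ubiquitin genes had a median of 0.06 over 5 genes. Ubb had 1550 FPKM in PDR and 1852 in SKYD (-0.26), and Rps27a had 292 and 410 (-0.49). In these lists 0 genes passed 2-fold in either direction, against 7.38% of all genes tested towards PDR and 6.91% towards SKYD.

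Genes that supply peptides to MHC class I molecules had a median of 0.80 over 6 genes tested. Of these, 2, Tap1 and Erap1, were more than 2-fold higher in PDR, against 7.38% of all genes tested. Tap1 had 39.3 FPKM in PDR and 9.90 in SKYD (1.89), while its partner Tap2 had 15.6 and 16.8 (-0.10). Erap1, which trims peptides in the endoplasmic reticulum, had 11.3 and 5.08 (1.01). Tapbp, which holds class I molecules at the transporter, had 85.9 and 53.5 (0.67), and B2m, the light chain, had 11417 and 8358 (0.45).

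Of the 5 related lists, the interferon response list had the highest median. It was 2.11 over 11 genes tested, 10 of which were more than 2-fold higher in PDR, against 7.38% of all genes tested. Gbp2, a guanylate-binding protein of the interferon response, had 130 FPKM in PDR and 16.8 in SKYD (2.88). The interferon-inducible GTPase genes Igtp and Gbp3 had 127 and 39.4 (1.67), and 87.8 and 16.4 (2.35). These genes were higher in PDR, as Psmb9 and Psme2 were. Irf1, a transcription factor that acts on Psmb9 and Tap1, had 56.6 and 15.6 (1.79). Socs1, an inhibitor of interferon signalling, had 5.23 and 11.4 (-0.99). Over all 5 lists, 13 of 40 genes tested exceeded 2-fold towards PDR, against 7.38% of all genes, and 0 towards SKYD, against 6.91%. Socs1 lay just under this threshold through the added pseudocount, since its FPKM in SKYD was 2.17 times that in PDR. The counts have no replicate check, and the differences of these lists come from the same 2 libraries as those of the members.

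**Figure D5:**
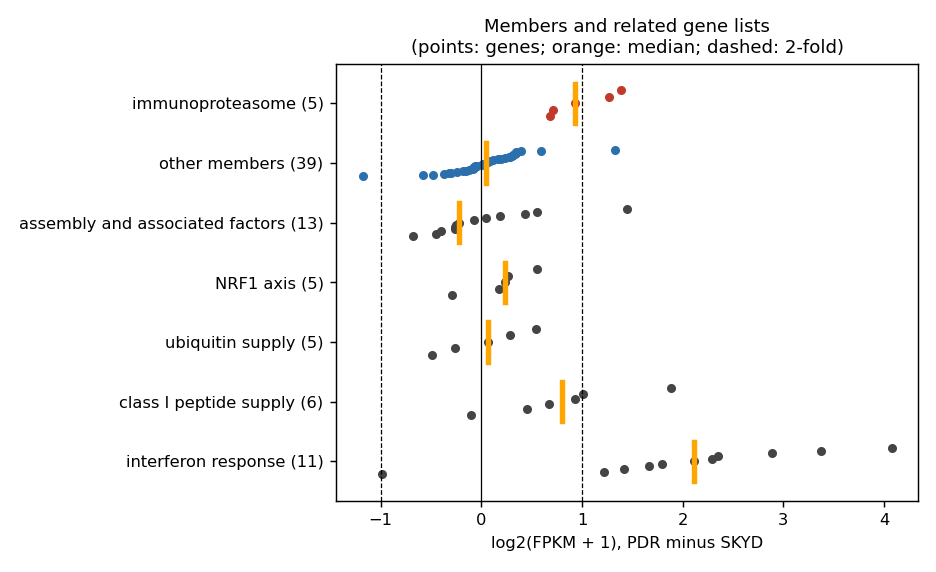
Log2(FPKM + 1) difference, PDR minus SKYD, of each gene tested in the immunoproteasome, among the other members and in 5 related lists, with the number of genes in brackets, the median in orange and 2-fold as dashed lines. The medians are 0.93 for the immunoproteasome genes, 0.80 for class I peptide supply and 2.11 for the interferon response, and those of the other members and of the remaining 3 lists lie between -0.22 and 0.23.

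Markers of other cells also differed between the libraries. B cell markers, 6 of 8 tested and all 6 more than 2-fold higher in PDR (7.38% of all genes), summed to 1692 FPKM in PDR and 384 in SKYD. T cell markers, 8 of 8 tested and all more than 2-fold higher in SKYD (6.91% of all genes), summed to 183 and 1263. Of the 12 macrophage markers tested, 4 were more than 2-fold higher in SKYD (6.91% of all genes) and 0 in PDR (7.38%). The macrophage list summed to 24916 and 48205, of which Lyz2 made up 22217 and 41336. Within this list Csf1r (0.35) and Fcgr1 (0.54) lay above 0. The summed levels were 276 and 122 for NK cells, 4797 and 3624 for neutrophils, 2145 and 731 for hepatocytes and 20988 and 28334 for erythroid cells. Dendritic cell markers summed to 106 and 217, with 42.4 and 166.7 from Cd209a, while Ccr7 of the same list had 56.7 and 30.1. The part of these cell types in the difference of the immunoproteasome genes was not tested. Thymic epithelium markers, 3 of 6 tested, summed to 11.3 in PDR and 27.4 in SKYD. Of these, Foxn1, the defining factor, had 0 reads in both libraries, while the keratin gene Krt8 had 196 reads in PDR and 872 in SKYD, more than 2-fold higher in SKYD. Endothelial markers summed to 4.46 and 2.83 FPKM, and fibroblast markers to 10.7 and 41.6. Nearly all of the latter was Dcn, a matrix proteoglycan gene, with 10.03 FPKM in PDR and 39.4 in SKYD, also more than 2-fold higher in SKYD.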

How the data were processed

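RNA of sorted F4/80+ CD11b+ aortic cells was measured in 1 library per group. According to the submitters' processing notes, reads were aligned with TopHat2 2.0.9 and Bowtie2 2.0.6 and counted with HTSeq 0.6.1. The authors deposited the values as FPKM per gene, with gene length and position. The notes name build mm9, but the positions match GRCm38, as 98.3% of 54409 shared genes have the start and end of GENCODE M21. FPKM times length gave multiples of the value of 1 read that lay within 0.000159 of a whole number for every gene, so that reads were recovered, and the library size that FPKM implies was 1.02 times the recovered sum in PDR and 0.983 times in SKYD. Table length was the union of exons for 42 of 45 members.

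Differences used a pseudocount of 1 and a minimum mean FPKM of 1, and understate changes of low genes. Differences of more than 2-fold and 1.5-fold were counted. A count of 0 allows 3 reads. The groups were taken from the labels, which place 1 sample in each, so no test was run. For the authors' differential expression the sources differ, with DESeq in the notes and edgeR in the supplementary text for samples lacking replicates. None of those results entered here. Members and lists were chosen with earlier results of these data known, and 2 lists and the Psme2b group were added after the values were seen. Genes named in full were the immunoproteasome and constitutive catalytic genes, the 3 other members with the largest difference each way and the members under the filter. From each related list these were the 3 genes of highest mean FPKM, apart from genes not reported here, and other genes were picked with their values known. Alternatives were other pseudocounts, filters, scalings, thresholds and gene lengths. Of 45 members, 38 matched a RefSeq promoter window. Recovery of reads, the 2-fold call and the intervals of gene differences were tested on simulated counts. The simulation held counting error only, without variation among mice, and the other steps were not tested in it. Tools were scipy 1.17.1, pandas 2.3.3, numpy 2.4.6 and matplotlib 3.10.9 under Python 3.11.15.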

Additional observations from a re-analysis of the deposited data

How the results depend on the processing

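No paired analysis was possible because each group had 1 library, and no library could be left out. Each of the 5 immunoproteasome genes stayed higher in PDR under every scaling tried. Scaling on protein-coding reads moved the median of all genes to 0.10, the immunoproteasome median to 1.05 and that of the other members to 0.17, and raised the members more than 2-fold higher in PDR from 3 to 4, as Psmb8 passed, while the share of all genes rose from 7.38% to 8.77%. By the plain sum of reads, added after the data were seen, these medians were 0.97 and 0.095, and with Psme2b, also added, the immunoproteasome median was 1.10. Members higher in PDR numbered 7 at 1.5-fold and 0 at 4-fold, where 1.87% of all genes were. Members higher in SKYD numbered 0 at 4-fold, where 2.08% of all genes were, and 0 with a mean FPKM of at least 5, which leaves Psma8 out (6.48% of all genes). Psma8 passed 4-fold with the smaller pseudocounts, at -2.03 and -2.20. Of the genes in related lists, 6 of 40 were higher in PDR at 4-fold. In SKYD 1 of them was higher with a pseudocount of 0.1 (9.71% of all genes), 0.01 (10.1%) or with TPM (7.91%), and 2 at 1.5-fold (15.0%). The direction was the same under the deposited FPKM and the 3 other scalings for 38 of 44 members, the exceptions being Psmc1, Psmc2, Psmc6, Psma7, Psmb5 and Psmd4. The spread between mice was not measured, and reads were fewest for Psma8, Psmb11 and Psme4.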

Other observations

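Further groups next to the proteasome were looked at after the data were seen. Of 8 genes of ubiquitin-like modifiers, 7 were tested, with a median log2 difference of 0.26. Uba7, which activates the modifier ISG15, had 5.73 FPKM in PDR and 2.11 in SKYD (1.11), and Usp18, which removes it, had 19.1 and 12.2 (0.61). Isg15 itself had 59.1 and 52.4 (0.17). Ubd, the gene of FAT10, a modifier that sends proteins to the proteasome, had 83 reads in PDR and 225 in SKYD and a difference of -1.15 (95% CI -1.46 to -0.85), opposite in sign to the immunoproteasome genes.

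Cytosolic peptidases, which shorten the peptides that the proteasome releases, had a median of 0.17 over 7 genes tested. Lap3, a leucine aminopeptidase, had 32.9 FPKM in PDR and 14.8 in SKYD, a difference of 1.10 (1.002 to 1.20). The other 6 genes lay between -0.25 and 0.28.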
